A study of Mus musculus with 3 samples.

Results

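The genes described here are 10 mouse genes of apelin, VEGF and Tie signalling, found by symbol among the 54532 genes of the count and FPKM tables. They are the apelin ligand Apln and its receptor Aplnr, the ligands Vegfa and Vegfc with the receptors Kdr, Flt1 and Flt4, and the Tie system of Angpt2, Tek and Tie1. The set was put together with the results of these libraries known. Apln was selected on its difference between GMTMS-iCMs and MICFs, the largest fall there, so the differences of these genes are a description. RNA was sequenced from 3 libraries, 1 per condition, to compare fibroblasts of the infarcted heart with the cardiomyocyte-like cells made from them. MICFs were cardiac fibroblasts of adult Myh6-mCherry mice, 8 weeks old at surgery, taken 5 days after a coronary artery was tied off to cause myocardial infarction, and kept in culture for 4 weeks with no virus. GMTMS-iCMs came from MICFs given Gata4, Mef2c, Tbx5, Myocd and Sall4 on doxycycline-inducible lentiviruses. GMTMM-iCMs came from MICFs given Gata4, Mef2c, Tbx5, Myocd and Mesp1. Both kinds of iCMs had 1 μg/ml doxycycline. After the same 4 weeks the iCMs were sorted for mCherry, a reporter driven by the promoter of the cardiomyocyte gene Myh6, and RNA of 5 sorted samples per cocktail was pooled. Sorting and doxycycline are described for the iCMs and not for MICFs. Sorting, doxycycline, virus and cocktail therefore cannot be told apart in any difference from MICFs.

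Apelin is a secreted peptide that acts on a G protein-coupled receptor, and it is made by the endothelial tip cells that lead a growing vessel. VEGF ligands bind the receptor tyrosine kinases Flt1, Kdr and Flt4 on blood and lymphatic endothelium and drive sprouting and permeability, and Tek with its partner Tie1 holds vessels stable under the control of the angiopoietins. In the heart, cardiomyocytes, macrophages and fibroblasts supply Vegfa, while most of the receptors are endothelial.

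In GMTMS-iCMs, 8 of the 10 genes were lower than in MICFs by over 1 on the log2 scale, and none was higher by over 1. That scale is FPKM (fragment counts scaled by gene length and library size) quantile-normalized over the 3 libraries, plus 1, in log2, and across all genes with a count 6.34% were lower and 7.29% higher by over 1 in the same comparison (1485 and 1708 genes). Scaled by library totals, 3772 genes were lower and 1315 higher, and the median of expressed genes was -0.37 instead of -0.04. Apln was lower 127-fold in FPKM, Tie1 42.1-fold, Flt4 21.2-fold, Angpt2 19.9-fold, Vegfc 15.2-fold, Flt1 6.14-fold, Tek 5.54-fold and Kdr 4.53-fold. Vegfa was 1.98-fold higher, and Aplnr was hardly counted in any library. In the library labelled GMTMM, only Apln and Kdr were lower than in MICFs by over 1, against 3.00% of all genes, and again none was higher by over 1 (4.89% of all genes, or 7.89% in either direction). Both comparisons share the MICF library. With 1 library per condition no difference has a replicate check and no p-value is given.

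**Figure D1:**
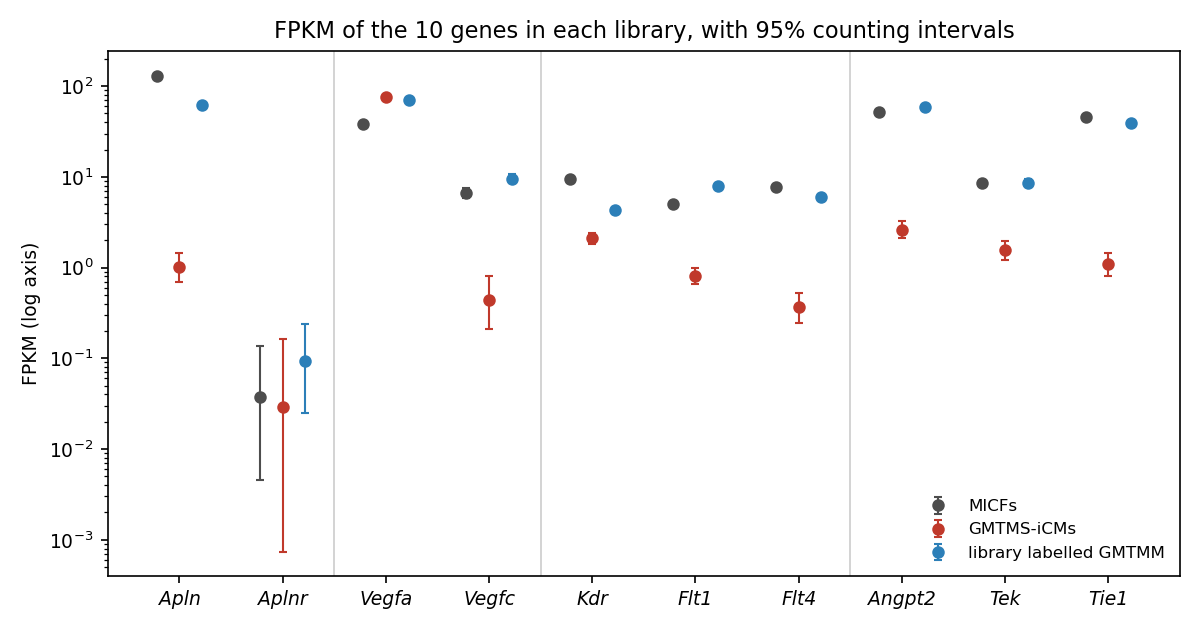
FPKM (log axis) of the 10 genes, 1 point for each of the 3 libraries (MICFs, GMTMS-iCMs, library labelled GMTMM), with bars for the exact Poisson 95% interval of the count. The GMTMS-iCM point is the lowest of the 3 for 9 genes, and for Vegfa it is the highest at 75.8.

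The label GMTMM did not match the factors counted. Sall4, absent from that cocktail, had 1060 counts there, 1190 in GMTMS-iCMs and 0 in MICFs, and Mesp1, which belongs to it, had 0 counts in each library. The sample is therefore called the GMTMM-labelled library below. Where 3 values are given together they stand in the order MICFs, GMTMS-iCMs, GMTMM-labelled library. Library totals were 11861773, 10624118 and 11904484 counts. The sum of 4 Y-linked genes was 0 in MICFs, against 1630 in GMTMS-iCMs and 1926 in the GMTMM-labelled library, and Xist, the X-inactivation RNA of female cells, had 11855, 5279 and 1618 counts, so the sex makeup of the source animals and the condition cannot be told apart. The genome coordinates of all 10 genes in the tables equal those of GENCODE M21 on GRCm38, none of their exon bases lies in an exon of another gene, and the largest share of 50-base words of a longest transcript that occurs in another gene is 0.4995%, for Flt4.

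The promoters of 4 of these genes are shown from RefSeq (GRCm38.p6), because Apln moved most, Vegfa did not fall, and Kdr and Flt1 moved apart in the GMTMM-labelled library. Each is the sequence just before the annotated start, 5′ to 3′ on the gene's strand, without annotated exon bases. Capitals mark the following letters, read on both strands. GGAAG is a form of the GGAA core bound by ETS factors, which act on many endothelial promoters. ACGTG or GCGTG is the core bound by hypoxia-inducible factors. Other forms of the ETS core are not marked or counted.
Apln, chrX:48034854-48035103, minus strand: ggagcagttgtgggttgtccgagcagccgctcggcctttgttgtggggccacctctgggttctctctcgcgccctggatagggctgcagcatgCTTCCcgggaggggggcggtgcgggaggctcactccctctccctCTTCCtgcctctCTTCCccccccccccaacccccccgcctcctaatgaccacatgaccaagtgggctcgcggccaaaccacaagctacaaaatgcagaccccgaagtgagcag
Vegfa, chr17:46032378-46032627, minus strand: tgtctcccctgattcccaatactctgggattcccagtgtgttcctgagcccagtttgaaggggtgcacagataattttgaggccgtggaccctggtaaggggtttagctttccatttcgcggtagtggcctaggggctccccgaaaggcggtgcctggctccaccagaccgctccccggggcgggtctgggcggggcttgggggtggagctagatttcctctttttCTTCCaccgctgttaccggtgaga
Kdr, chr5:75978459-75978705, minus strand: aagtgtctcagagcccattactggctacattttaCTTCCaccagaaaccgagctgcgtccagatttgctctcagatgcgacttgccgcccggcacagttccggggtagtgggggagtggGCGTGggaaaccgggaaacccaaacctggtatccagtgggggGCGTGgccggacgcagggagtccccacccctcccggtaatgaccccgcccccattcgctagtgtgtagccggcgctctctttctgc
Flt1, chr5:147726012-147726261, minus strand: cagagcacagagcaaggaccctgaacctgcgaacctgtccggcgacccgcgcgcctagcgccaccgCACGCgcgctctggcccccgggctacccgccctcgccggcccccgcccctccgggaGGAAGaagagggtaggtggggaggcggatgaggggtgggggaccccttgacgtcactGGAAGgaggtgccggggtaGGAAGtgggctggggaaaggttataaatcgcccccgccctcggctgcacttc
The Apln and Flt1 windows each held the ETS letters 3 times, and the Vegfa and Kdr windows each held them 1 time. The hypoxia letters occurred 2 times before Kdr, 1 time before Flt1 and 0 times before Apln and in this window of Vegfa. RefSeq gives Vegfa a second start, whose window begins in an annotated exon and is not printed, and that window held the ETS letters 1 time and the hypoxia letters 2 times. Among 32841 RefSeq promoter windows of 250 bases, 64.1% held the ETS letters and 38.6% the hypoxia letters, so a match is common. RefSeq promoters were matched for 8 of the 10 genes, and those of Aplnr and Angpt2 were not. Of the matched promoters not printed, the windows of Vegfc and Tek held neither the ETS nor the hypoxia letters. The full windows of Flt4 and Tie1, which include annotated exon bases, held the ETS letters 1 and 6 times and no hypoxia letters.

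Apelin and its receptor were at opposite ends of the range of levels. Apln (ENSMUSG00000037010, chromosome X from 48025146 to 48034853, minus strand) had 5916 counts in MICFs against 30 in GMTMS-iCMs and 2259 in the GMTMM-labelled library. In FPKM these were 131, 1.03 and 61.4, so the gene stood at rank 226 among all 54532 genes in MICFs and at rank 11855 in GMTMS-iCMs. MICFs were highest and GMTMS-iCMs lowest, with the GMTMM-labelled library between them. Against MICFs, the FPKM of Apln in GMTMS-iCMs was 127-fold lower, with an exact 95% interval of 89.1 to 189 that covers counting error only, as do all intervals given here. It was 2.13-fold lower in the GMTMM-labelled library than in MICFs (2.02 to 2.23). Scaled by library totals instead of the size factors behind the deposited FPKM, the first of these became 177-fold. Apln is X-linked, and 6.41% of 733 X-linked genes were lower by over 1 in GMTMS-iCMs, against 6.34% of genes on other chromosomes.

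Aplnr (ENSMUSG00000044338, chromosome 2 from 85136225 to 85139923, plus strand), the apelin receptor, had 2 counts in MICFs against 1 in GMTMS-iCMs and 4 in the GMTMM-labelled library. Its FPKM stayed under 0.1 throughout, and no difference was detectable at this depth. Apela, the other known ligand of this receptor, had 0 counts in each library, which allows up to 3 counts, or a CPM (counts scaled to library totals) of 0.253, 0.282 and 0.252. The ligand Apln was thus abundant in 2 of the libraries while its receptor was near the floor of detection in all 3.

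Among the VEGF ligands, Vegfa and Vegfc differed from MICFs in opposite directions in GMTMS-iCMs. Vegfa (ENSMUSG00000023951, chromosome 17 from 46016993 to 46032369, minus strand), the main angiogenic ligand, had 2357 counts in MICFs against 3017 in GMTMS-iCMs and 3517 in the GMTMM-labelled library. Its FPKM of 38.2, 75.8 and 70.3 placed both transduced libraries above MICFs, 1.98-fold (1.88 to 2.09) and 1.84-fold (1.74 to 1.94). On the log2 scale the differences were 0.43 and 0.38, under 1, and on library totals the ratios were 1.43 and 1.49. By FPKM, Vegfa was the most abundant of the 10 genes in both transduced libraries, while in MICFs it was Apln.

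Vegfc (ENSMUSG00000031520, chromosome 8 from 54077606 to 54187096, plus strand), the lymphangiogenic ligand of Flt4, had 235 counts in MICFs against 10 in GMTMS-iCMs and 274 in the GMTMM-labelled library. The 10 counts give an FPKM of 0.440 against 6.67 in MICFs, 15.2-fold lower (8.10 to 32.0). In the GMTMM-labelled library its FPKM of 9.58 was 1.44-fold that of MICFs (1.20 to 1.72). The ratio of Vegfa to Vegfc in FPKM was 5.73 in MICFs, against 172 in GMTMS-iCMs and 7.34 in the GMTMM-labelled library.

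The remaining VEGF ligands, from a list written for this comparison, moved like Vegfc where they moved. Pgf, a ligand of Flt1, had 3238, 81 and 3386 counts, and its FPKM was 25.8-fold lower in GMTMS-iCMs (20.7 to 32.6). Vegfd, a ligand of Flt4, had 996, 44 and 923 counts in the same order and was 14.6-fold lower (10.8 to 20.2). Vegfb, another ligand of Flt1, had FPKM of 26.9, 25.5 and 21.7 and differed from MICFs by less than 1 on the log2 scale in both transduced libraries. Of the 5 VEGF ligands, 3 were lower by over 1 in GMTMS-iCMs and none in the GMTMM-labelled library.

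All 3 VEGF receptors were lower in GMTMS-iCMs than in MICFs, by unequal amounts. Kdr (ENSMUSG00000062960, chromosome 5 from 75932827 to 75978458, minus strand), the main signalling receptor for Vegfa, had 1236 counts in MICFs against 176 in GMTMS-iCMs and 453 in the GMTMM-labelled library. Its FPKM of 9.51, 2.10 and 4.29 was 4.53-fold lower in GMTMS-iCMs (3.87 to 5.34) and 2.21-fold lower in the GMTMM-labelled library (1.99 to 2.47). Kdr and Apln were below MICFs by over 1 on the log2 scale in both transduced libraries, although without quantile normalization the difference of Kdr in the GMTMM-labelled library was -0.99.

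Flt1 (ENSMUSG00000029648, chromosome 5 from 147561604 to 147726011, minus strand), a receptor that binds Vegfa tightly and also exists in a soluble decoy form, had 971, 102 and 1263 counts in that order. FPKM went from 5.00 in MICFs to 0.813 in GMTMS-iCMs, 6.14-fold lower (5.01 to 7.61), and stood at 8.01 in the GMTMM-labelled library, 1.60-fold higher (1.47 to 1.74). Counts per gene do not separate the soluble from the membrane form. The FPKM ratio of Flt1 to Kdr was 0.525 in MICFs, against 0.388 in GMTMS-iCMs and 1.86 in the GMTMM-labelled library, so the order of these receptors was turned round there, by 3.55-fold relative to MICFs (3.09 to 4.08).

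Flt4 (ENSMUSG00000020357, chromosome 11 from 49609263 to 49652739, plus strand), the receptor of Vegfc and Vegfd, had 918 counts in MICFs against 28 in GMTMS-iCMs and 580 in the GMTMM-labelled library. The FPKM of 0.366 in GMTMS-iCMs was 21.2-fold below the 7.75 of MICFs (14.5 to 32.0). In the GMTMM-labelled library it was 6.03, 1.28-fold lower (1.16 to 1.43). The ligand Vegfc and its receptor Flt4 were thus both under 0.5 FPKM in GMTMS-iCMs.

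The co-receptors Nrp1 and Nrp2, which bind VEGF and semaphorins and are found on many cell types, were not lower by over 1 in GMTMS-iCMs as the receptors were, while Nrp1 was lower in the GMTMM-labelled library, as Kdr was. Nrp2 had 4776, 10380 and 5280 counts, and its FPKM was 3.37-fold higher in GMTMS-iCMs (3.25 to 3.49). Nrp1 had 4423, 3183 and 1908 counts, with a log2 difference from MICFs of -0.26 in GMTMS-iCMs and -1.23 in the GMTMM-labelled library. The sign of the first turned with the scaling, since its FPKM was 31.4 in MICFs and 35.0 in GMTMS-iCMs.

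In the Tie system, the receptor Tie1 and the ligand Angpt2 were among the most reduced genes of the set in GMTMS-iCMs. Tie1 (ENSMUSG00000033191, chromosome 4 from 118471191 to 118490061, minus strand), a Tie receptor that modulates Tek, had 3263 counts in MICFs against 50 in GMTMS-iCMs and 2225 in the GMTMM-labelled library. Its FPKM was 46.1, 1.09 and 38.7, which was 42.1-fold lower in GMTMS-iCMs (31.9 to 56.9) and 1.19-fold lower in the GMTMM-labelled library (1.13 to 1.26). Tek (ENSMUSG00000006386, chromosome 4 from 94739289 to 94874976, plus strand), the angiopoietin receptor, had 584, 68 and 471 counts in the same order. Tek in the GMTMM-labelled library, at 8.56 FPKM, could not be told from MICFs at 8.61 FPKM, with a ratio of 0.994 (0.878 to 1.12) that became 0.804 on library totals, and in GMTMS-iCMs it was 5.54-fold lower (4.31 to 7.24).

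Angpt2 (ENSMUSG00000031465, chromosome 8 from 18690263 to 18741562, minus strand), a ligand stored in endothelial cells that antagonises or activates Tek depending on context, had 2778 counts in MICFs against 90 in GMTMS-iCMs and 2556 in the GMTMM-labelled library. It was 19.9-fold lower in FPKM in GMTMS-iCMs (16.1 to 24.9). Between the GMTMM-labelled library and MICFs its direction depended on the scale, with a log2 difference of -0.33 after quantile normalization and an FPKM ratio of 1.13 (1.07 to 1.20) without it. Angpt1, the agonist that opposes Angpt2, was far lower throughout, with FPKM of 1.40, 0.228 and 1.20. The FPKM ratio of Angpt2 to Angpt1 was 37.3 in MICFs, against 11.5 in GMTMS-iCMs and 49.4 in the GMTMM-labelled library, and the 11 counts of Angpt1 in GMTMS-iCMs limit the second of these.

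Other proteins of the Tie complex from the same list went the same way in GMTMS-iCMs. Ptprb, the phosphatase that dephosphorylates Tek, had 884, 24 and 634 counts and was 23.8-fold lower in FPKM (15.9 to 37.3). Svep1, a large matrix protein, had 2102, 158 and 1551 counts and was 8.59-fold lower (7.30 to 10.2). Of the 7 genes listed for angiopoietins, Tie receptors and partners, 5 were lower by over 1 in GMTMS-iCMs and none was higher. In the GMTMM-labelled library 1 was higher by over 1, the ligand Angpt4, which had 14 counts in MICFs and 76 there.

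**Figure D2:**
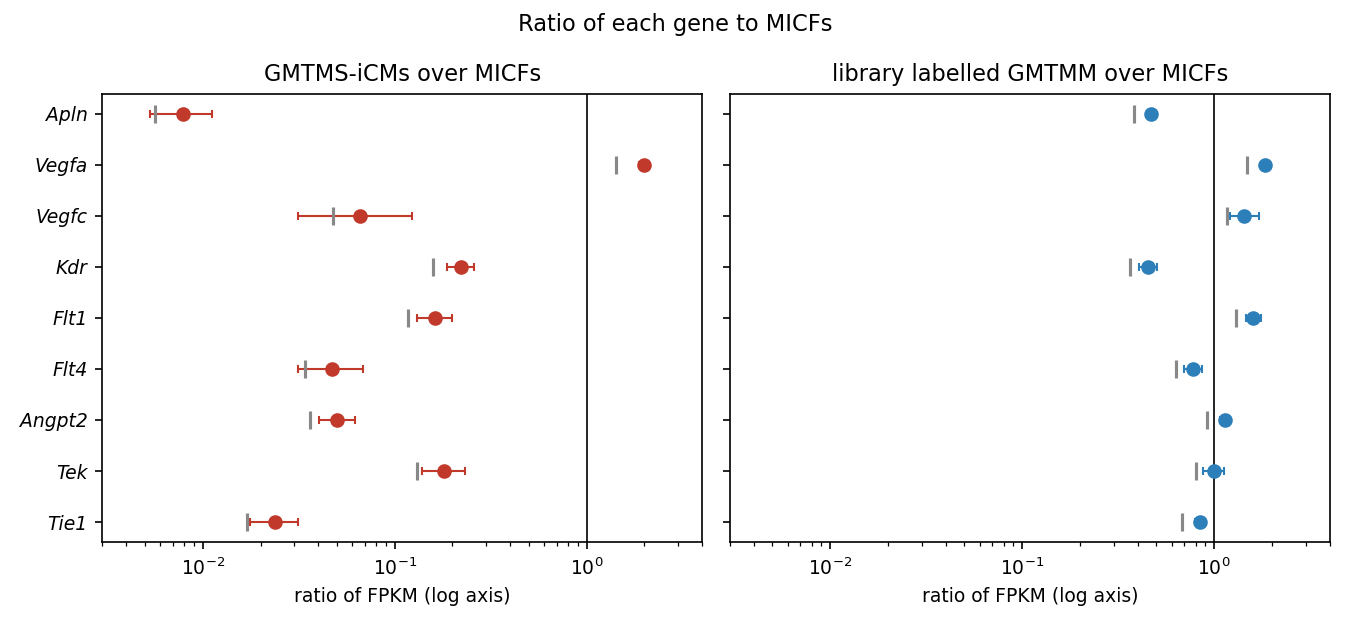
Ratio of FPKM to MICFs (log axis, line at 1) for 9 genes in GMTMS-iCMs (left) and in the library labelled GMTMM (right), with bars for the exact binomial 95% counting interval and grey ticks for the ratio on library totals. Aplnr is left out because it had at most 4 counts. In GMTMS-iCMs the ratios run from 0.00786 for Apln to 1.98 for Vegfa, and in the library labelled GMTMM from 0.451 for Kdr to 1.84 for Vegfa.

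The order of the 8 reduced genes was examined with FPKM ratios between genes of one library, which are unchanged when a library is scaled by a single factor but not by quantile normalization. Kdr, Flt1 and Tek were reduced less than Tie1 in GMTMS-iCMs. The ratio of Kdr to Tie1 was 9.29-fold higher there than in MICFs (6.70 to 13.1), and that of Tek to Tie1 was 7.60-fold higher (5.13 to 11.3). Tek and Flt1 did not differ beyond counting error (1.11, interval 0.789 to 1.55), nor did Tek and Kdr (0.818, interval 0.598 to 1.11). Flt4 and Angpt2 were reduced by amounts that could not be told apart (ratio 0.941, interval 0.589 to 1.46), and Tie1 was reduced more than either. The ratio of Apln to Angpt2 was 2.50, 0.391 and 1.04, and its drop in GMTMS-iCMs is a description, since Apln was chosen for its fall there.

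Each gene was also set against Cdh5, the cadherin of endothelial junctions, which was chosen with its values known and had 12354 counts in MICFs against 157 in GMTMS-iCMs and 7239 in the GMTMM-labelled library. Tie1 stayed close to Cdh5, at FPKM ratios of 0.226, 0.272 and 0.263. In GMTMS-iCMs its ratio to Cdh5 was 1.21 of the MICF value (0.857 to 1.67), and its ratio to Pecam1, an endothelial adhesion molecule, was 1.04 (0.724 to 1.47). For the GMTMM-labelled library these were 1.16 (1.09 to 1.24), above 1 beyond counting error, and 1.00 (0.937 to 1.07). The ratio of Apln to Cdh5 was 0.652 of the MICF value in the GMTMM-labelled library (0.616 to 0.690), and 0.399 in GMTMS-iCMs, where the choice of Apln fixed its direction. Relative to Cdh5, Kdr was 11.2-fold higher in GMTMS-iCMs (8.91 to 14.1), and in the GMTMM-labelled library it was at 0.625 of the MICF value (0.558 to 0.700). In GMTMS-iCMs Tek was 9.16-fold higher on this measure (6.70 to 12.4) and Flt1 8.27-fold (6.32 to 10.8), intervals that overlap that of Kdr. In both transduced libraries Flt1, Tek, Angpt2, Vegfa and Vegfc were thus higher relative to Cdh5 than in MICFs, with intervals above 1. For some genes the direction in GMTMS-iCMs depended on the reference. Another reference was the summed counts of 16 endothelial markers. S1pr1, Eng and Cdh5 held 1942, 4829 and 12354 of these in MICFs. They held 1693, 783 and 157 in GMTMS-iCMs, where the sum was thus mostly S1pr1 and Eng. Against this sum, the change there was 0.0742 for Apln, 0.224 for Tie1, 0.446 for Flt4, 0.474 for Angpt2 and 0.623 for Vegfc (0.294 to 1.17). It was 1.54 for Flt1, 1.70 for Tek, 2.08 for Kdr and 18.7 for Vegfa. In the GMTMM-labelled library Flt1, Tek, Angpt2, Vegfa and Vegfc stayed above 1 against this sum, from 1.28 for Tek to 2.36 for Vegfa.

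**Figure D3:**
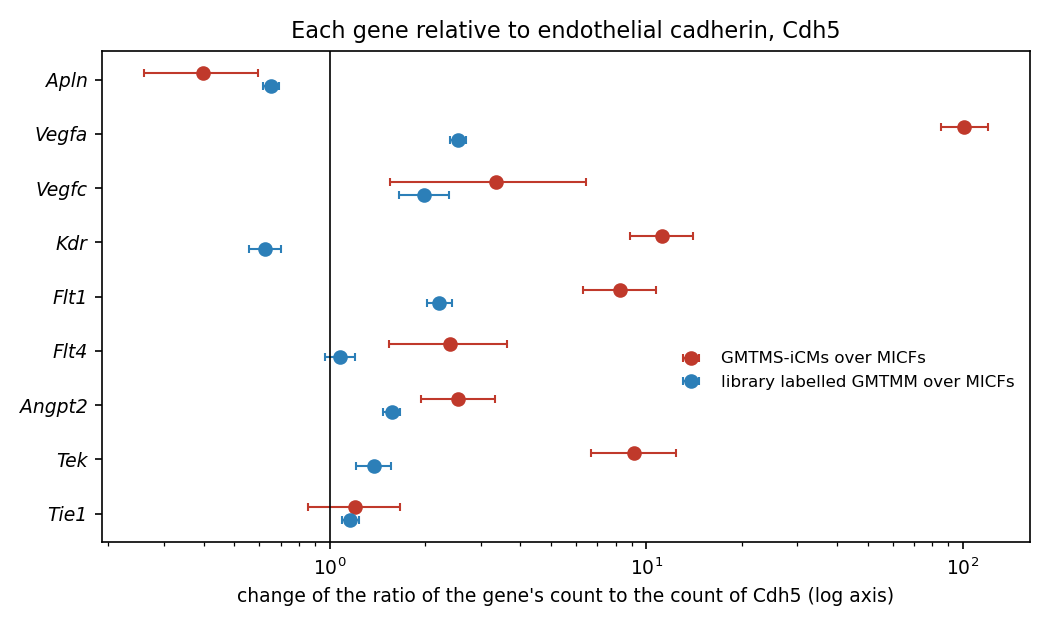
Change, relative to MICFs, of the ratio of each gene's count to the count of Cdh5 (log axis, line at 1), in GMTMS-iCMs (red) and in the library labelled GMTMM (blue), with exact conditional 95% counting intervals. Apln lies below 1 in both libraries, and Kdr on opposite sides of 1 at 11.2 and 0.625. Tie1 lies at 1.21 and 1.16, and only the second interval excludes 1.

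The transduced libraries were compared with each other under the same limit on the label. Of the 10 genes, 7 were lower by over 1 in GMTMS-iCMs than in the GMTMM-labelled library (6.71% of all genes), and none was higher (5.50% of all genes). Apln was 59.9-fold lower (41.8 to 89.0), Tie1 35.4-fold (26.7 to 47.8), Angpt2 22.6-fold (18.3 to 28.2) and Flt1 9.85-fold (8.04 to 12.2). Kdr was 2.05-fold lower (1.72 to 2.45), a log2 difference of -0.66 that became -1.15 on library totals and -1.08 with TMM scaling. Vegfa was at similar FPKM in both, with a ratio of 1.08 (1.03 to 1.13) that became 0.961 on library totals. These comparisons share libraries with those against MICFs and are not independent of them.

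**Figure D4:**
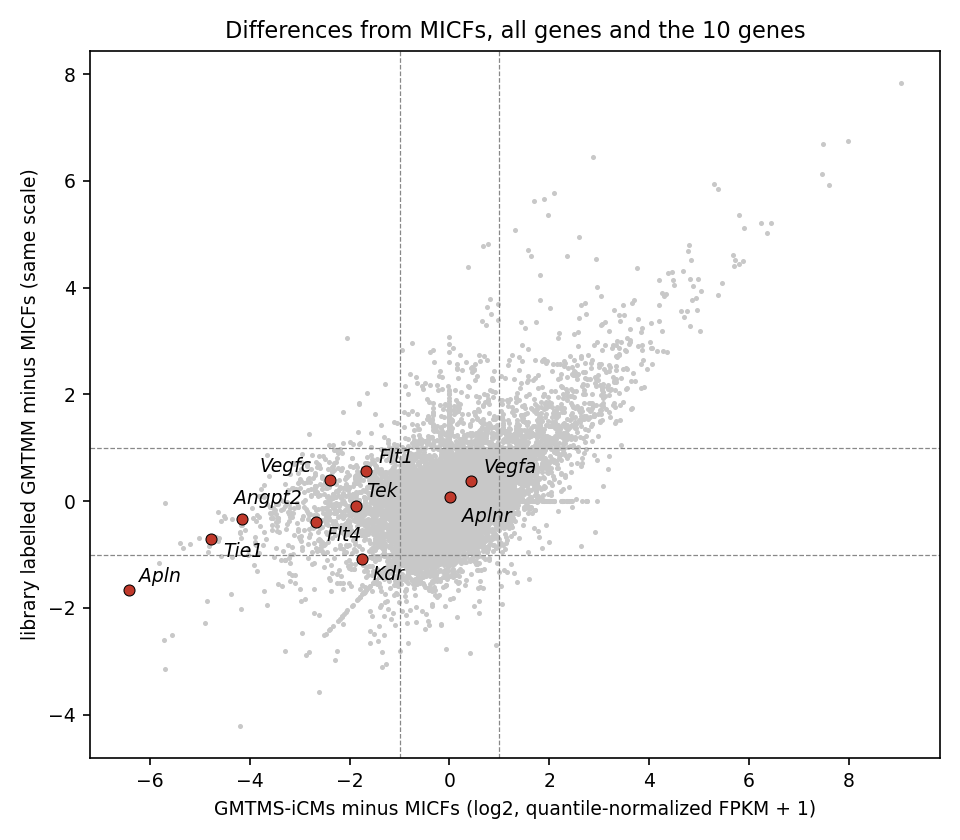
Difference from MICFs in GMTMS-iCMs (x axis) and in the library labelled GMTMM (y axis), both in log2 of quantile-normalized FPKM plus 1, for all genes with a count (grey) and the 10 genes (red), with dashed lines at -1 and 1. Both axes share the MICF library. Apln is the leftmost of the 10 at -6.42 and -1.67, and Vegfa and Aplnr lie inside both pairs of lines.

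The libraries held transcripts of several cell types, and the levels of their markers are given here. Some of these lists moved with the genes above and others moved the other way. The library of MICFs, labelled as cardiac fibroblasts, had all 10 fibroblast markers, all 16 endothelial markers and all 12 macrophage markers at an FPKM of at least 1. Of the 16 endothelial markers, 15 were lower by over 1 in GMTMS-iCMs, with a median difference of -4.18, and 5 were lower in the GMTMM-labelled library, with a median of -0.75. Over all genes with a count the medians were -0.02 and -0.03. The summed FPKM of the endothelial markers was 763 in MICFs, against 95.9 in GMTMS-iCMs and 606 in the GMTMM-labelled library, and none of them was at 0 counts in any library. S1pr1, the exception, had 1942, 1693 and 2381 counts. It held 59.8 of the 95.9 FPKM in GMTMS-iCMs, and Eng held 20.8. In bulk RNA, fewer endothelial cells and less of these transcripts per endothelial cell cannot be told apart.

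Fibroblast markers summed to 1507, 228 and 2862 FPKM, and mural cell markers to 315, 99.1 and 467. Myh11, a smooth muscle myosin, held 70.1 of the 99.1 FPKM. Of the 8 mural markers, 6 were lower and 1 higher by over 1 in GMTMS-iCMs, with a median of -2.75, and none was lower and 2 were higher in the GMTMM-labelled library, with a median of 0.70. The 10 fibroblast markers were all lower by over 1 in GMTMS-iCMs, as were most endothelial and mural markers and Vegfc, Vegfd and Pgf. Macrophage markers summed to 10382, 21408 and 10085 FPKM. Of these 12 markers, 3 were higher by over 1 and none lower in GMTMS-iCMs, with a median of 0.35, and 1 was higher and 2 were lower in the GMTMM-labelled library, with a median of -0.62. Among 5 lymphatic endothelial markers matched to 1 row each, Lyve1 and Mmrn1 were lower and Pdpn higher by over 1 in both transduced libraries, and Mmrn1 had 238, 1 and 3 counts. Prox1, which defines lymphatic endothelium, had 127, 30 and 39 counts. The 10 cardiomyocyte markers summed to 2.68, 1425 and 527 FPKM. The part that any of these cell types had in the values of the 10 genes was not tested.

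Most genes that mark endothelial tip cells were lower in GMTMS-iCMs, as Apln and Angpt2 were, and most did not pass the threshold in the GMTMM-labelled library. Of 10 tip cell genes, 8 were lower by over 1 in GMTMS-iCMs, with a median of -2.79, and 1 was higher. In the GMTMM-labelled library 1 was lower and 1 higher, with a median of -0.32. Cxcr4 passed the threshold in neither, at -0.74 and -0.02. The 16 endothelial markers had a lower median in GMTMS-iCMs, -4.18, so the fall was not particular to tip cell genes. Dll4, the Notch ligand of tip cells, had 2652, 45 and 1846 counts and was 38.0-fold lower in FPKM in GMTMS-iCMs (28.3 to 52.3). Esm1, a secreted proteoglycan induced by VEGF, had 1036, 45 and 2148 counts, 14.9-fold lower in GMTMS-iCMs (11.0 to 20.5) and 2.55-fold higher in the GMTMM-labelled library (2.37 to 2.75). The gene that was higher was Plaur, the urokinase receptor, also made by macrophages, with 377, 2480 and 1864 counts.

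Endothelial transcription factors were divided. Of 14 factors, 6 were lower by over 1 in GMTMS-iCMs, none was higher, and the median difference was -0.56. The 6 were Erg, Gata2, Sox7, Sox17, Sox18 and Hhex. Sox18, a regulator of lymphatic and blood vessel identity, had 901, 1 and 155 counts, and Erg, an ETS factor, had 905, 27 and 719 counts. In the GMTMM-labelled library 2 factors were higher and 2 lower by over 1, with a median of -0.35. Sox18 was the lowest there, at -2.50. Ets1, another ETS factor, had 1369, 742 and 4306 counts and was higher by over 1 in the GMTMM-labelled library only. So was Klf4, at 1.13 there and -0.14 in GMTMS-iCMs.

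Genes of the hypoxia response and of signal relay below the receptors passed the threshold in both directions in GMTMS-iCMs, and in the GMTMM-labelled library those that passed it were higher. Of 14 hypoxia genes, 1 was higher and 2 lower by over 1 in GMTMS-iCMs, with a median of -0.10, and 3 (Slc2a1, Egln3 and Ankrd37) were higher and none lower in the GMTMM-labelled library, with a median of -0.03. Adm, the vasodilator peptide adrenomedullin, had 1595, 130 and 1306 counts, while Slc2a1, the glucose transporter, had 646, 1331 and 2605 and was 3.19-fold higher in FPKM in GMTMS-iCMs (2.90 to 3.51). Hif1a had 1870, 2456 and 3189 counts and Epas1, the HIF subunit prominent in endothelium, 4679, 1453 and 4522. Of 15 relay genes, 3 were higher (Shb, Src and Dok2) and 2 lower (Plcg1 and Ptk2) by over 1 in GMTMS-iCMs, and 4 (Sh2d2a, Shb, Src and Nck1) were higher and none lower in the GMTMM-labelled library. Plcg1, the phospholipase that binds activated Kdr, had 1526, 262 and 813 counts and was 3.76-fold lower (3.30 to 4.30). Among 6 genes of Vegfc processing, Furin, a protease that cleaves its precursor, was 3.02-fold higher in FPKM (2.87 to 3.18), and Adamts14 was 8.34-fold lower (4.64 to 16.5).

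**Figure D5:**
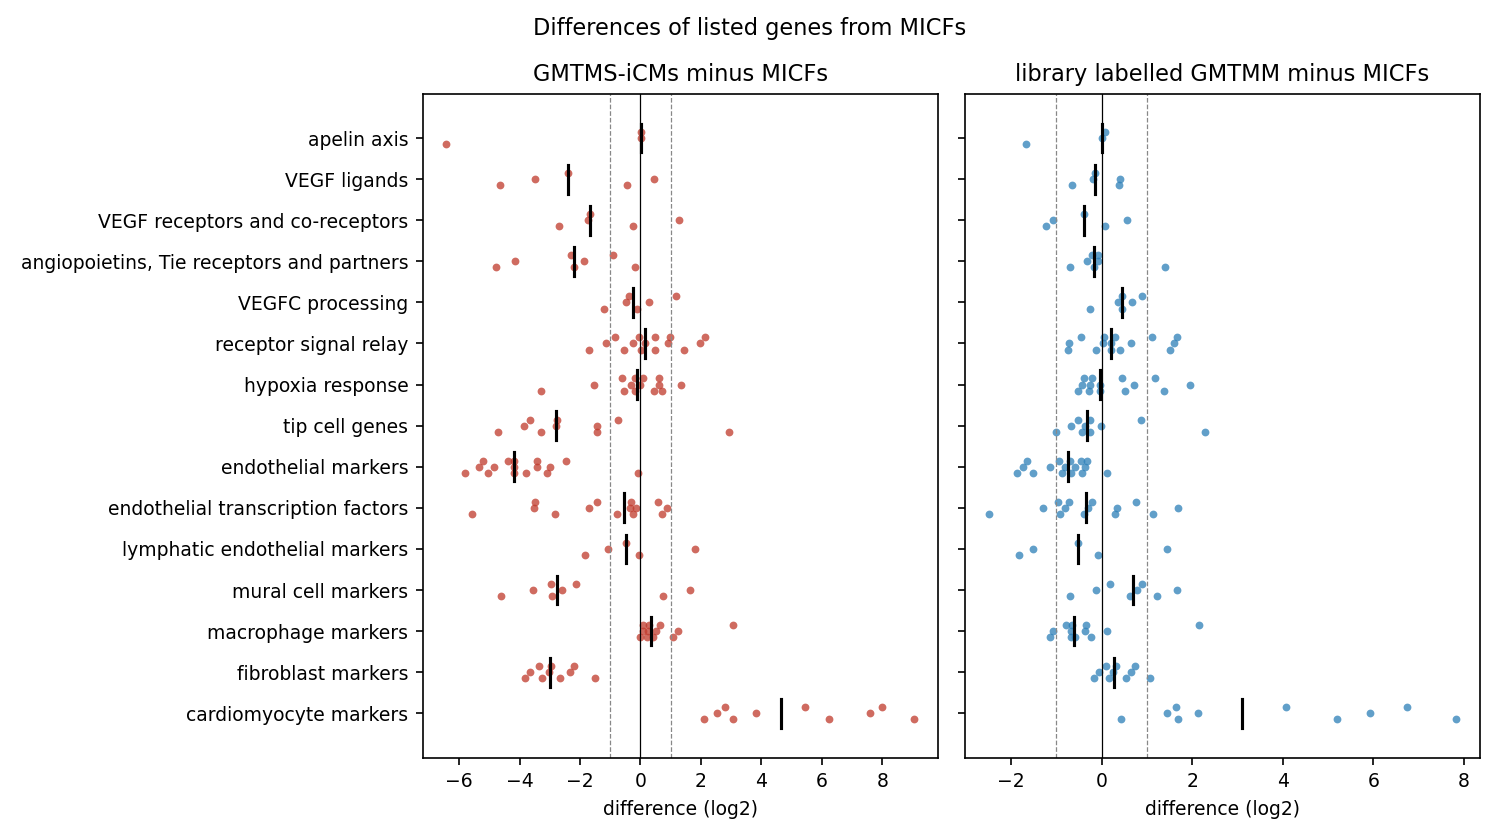
Difference from MICFs (log2, quantile-normalized FPKM plus 1) of every gene in the 15 pathway and marker lists, for GMTMS-iCMs (left) and the library labelled GMTMM (right), with 1 point per gene, a black bar at the list median and dashed lines at -1 and 1. In GMTMS-iCMs the endothelial median lies at -4.18 and the fibroblast median at -3.00, and in the library labelled GMTMM at -0.75 and 0.28.

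The genes whose differences from MICFs were nearest to those of Apln, by Euclidean distance over the 2 transduced libraries among 12181 genes with at least 50 counts in some library, were Cdh5, G0s2, Sox18, Cldn5 and Chga. The distances ran from 0.80 for Cdh5 to 1.34 for Chga. Cldn5, the claudin of endothelial tight junctions, had 1595, 20 and 1058 counts. G0s2, an inhibitor of lipolysis, had 707, 3 and 120 counts, and Chga, a granule protein of secretory cells, had 3746, 48 and 2609. The genes nearest to Kdr were Ccnd1, Gm39822, Kctd12b, Ppm1f and Plxnd1, at distances from 0.03 to 0.17. Nearness on this log2 scale did not mean equal folds in FPKM. Kdr was 4.53-fold lower in GMTMS-iCMs and 2.21-fold lower in the GMTMM-labelled library. Plxnd1 was 1.96-fold and 1.38-fold lower, and Gm39822 had 84, 0 and 17 counts. These 2 differences share the MICF library and rest on 1 library each. Apln was chosen on its difference in GMTMS-iCMs, so genes near Apln have large falls there by construction. Its neighbours are a description.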

How the data were processed

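The reads were paired and 150 nucleotides long. The submitters' processing notes name HISAT2 2.0.5 and mm9, although the gene coordinates in the tables are those of GRCm38. The counting tool, strand setting and treatment of reads with several matches are not given in the sources used here. The authors deposited raw counts per gene and FPKM. Their FPKM equal counts divided by gene length, with DESeq2 size factors (1.26, 0.811 and 1.02 for MICFs, GMTMS-iCMs and the GMTMM-labelled library) times the geometric mean of the totals as library size. The MICF column, abbreviated cMF, was matched to MICFs because the other columns name the cocktails.

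As the study's methods state, FPKM were quantile-normalized over the 3 libraries (here with ties averaged) and then transformed as log2 (value + 1). A difference over 1, which the study used to filter genes before clustering, was taken here as the threshold. The background is all genes with a count in either library. Ratios of FPKM carry Clopper-Pearson 95% intervals on the counts, ratios between genes carry exact conditional odds ratio intervals, and 3 counts were the floor. The members and gene lists were chosen with earlier results of these data known. The text names all 10 members, listed pathway genes with at least 10 counts in some library, and the 5 genes nearest to Apln and Kdr. Cdh5, Pecam1, S1pr1, Eng and the lymphatic markers were named after their values were seen. Ccl21a, found in 2 rows, was left out of its list. The alternatives were log2 ahead of quantile normalization, FPKM with none, a pseudocount of 0.1, TMM log2 CPM of edgeR, DESeq2 size factors, CPM on library totals, a filter leaving genes that reached an FPKM of 1 in some library, and a difference over 2. The scale and interval steps were tried on simulated Poisson counts with as many genes raised as lowered. That setting does not test the scaling between these libraries. Computation used R 4.3.3 with DESeq2 1.42.0 and edgeR 4.0.16, and Python 3.11.15 with SciPy 1.17.1, pandas 2.3.3, numpy 2.4.6 and matplotlib 3.10.9.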

Additional observations from a re-analysis of the deposited data

How the results depend on the processing

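No paired analysis was possible because there is a single library for every condition, and for the same reason no replicate could be left out. Against MICFs, the number of the 10 genes that were lower by over 1 in GMTMS-iCMs was 8 under each scaling, pseudocount and filter listed under the processing, and 5 for a difference over 2. For the GMTMM-labelled library against MICFs it was 2, except 1 without quantile normalization, where Kdr had a difference of -0.99, and 0 for a difference over 2. Between the transduced libraries it was 6 for a difference over 2 and between 7 and 9 otherwise, with Kdr past 1 under TMM, DESeq2 size factors and library totals, and Aplnr (1 against 4 counts) past 1 under DESeq2 size factors. No gene of the set was higher by over 1 in any comparison or setting. With quantile normalization over MICFs and GMTMS-iCMs alone, an alternative added after seeing the data, 8 were lower.

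Of 217 differences of single genes under the alternatives, 134 stayed within the counting interval of the main value and 83 moved. The sign differed in 8, all of differences under 1: 4 of Aplnr and none past 0.22 in size, 3 of Angpt2 in the GMTMM-labelled library against MICFs (0.15 to 0.18), and 1 of Vegfa between the transduced libraries (-0.06 on library totals). The difference of Apln in GMTMS-iCMs lay between -7.21 and -6.02. Of 750 counts of list genes, 650 stayed within 1.5 times and 100 moved.

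The background moved more than the members. Against MICFs, 1485 genes were lower in GMTMS-iCMs, and 4823 with DESeq2 size factors, 4276 with TMM, 4185 with a pseudocount of 0.1 and 479 for a difference over 2. The numbers higher were 1708, 5138, 3586, 4138 and 497 in that order. For the GMTMM-labelled library against MICFs, the numbers lower in that order were 708, 3324, 2652, 3194 and 63, among 23623 genes. The 2 members lower there thus stood beside a larger share of all genes with DESeq2 size factors, TMM or the smaller pseudocount. Between the transduced libraries, the numbers lower in GMTMS-iCMs were 1550, 4515, 4450, 3833 and 513, among 23113 genes. On library totals 1315 were higher and 3772 lower, since the median of expressed genes was then -0.37 rather than -0.04. Depth limits Aplnr, Apela and the 10 counts of Vegfc in GMTMS-iCMs.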
